A study of Homo sapiens with 30 samples.

Results

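The RNA levels of 4 genes were followed through every library of the series: RBPMS, its paralog RBPMS2, ANKRD10, and ANKRD10-IT1, a transcript that lies inside ANKRD10. They were chosen by symbol, as the gene that was knocked out, the gene that was overexpressed and knocked down, and the closest relative or overlapping transcript of each. All 4 were found in each of the 3 count tables, among 60612 rows of the knockout table and 56303 rows of each of the other tables. The 30 libraries came from 5637, a human bladder carcinoma cell line, and no other line or tissue was included.

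Each of the 10 groups had 3 libraries. In the knockout table, KO1 and KO2 were RBPMS-KO cells and WT1 and WT2 were wild-type controls, compared by their shared number. The overexpression table held Vector only cells, ANKRD10-1 overexpression and ANKRD10-2 overexpression. The knockdown table held siNC, siANKRD10-1 and siANKRD10-2. Total counts per library ran from 44593108 to 69723937 in the knockout table, from 31736779 to 47493499 in the overexpression table and from 28511029 to 32784584 in the knockdown table. The text of the study mentions single-clone expansion of its knockout populations, and a change in KO1 or KO2 and a difference between clones cannot be told apart. Distinct guide RNAs against RBPMS were used, and the study names off-target effects as a possible reason for limited agreement in splicing between its knockouts. The labels do not say which guide made KO1 or KO2, and effects of guide and clone cannot be told apart either. The overexpressed ANKRD10 came from tagged plasmids. The text of the study places ANKRD10-2 knockdown and ANKRD10-1 overexpression for RNA sequencing in RBPMS knockout cells. It places ANKRD10-1 knockdown and ANKRD10-2 overexpression in 5637 cells. The labels give only 5637, so the RBPMS status of the cells in the overexpression and knockdown tables is not settled here. A treated group there may differ in RBPMS status from its control or from the other treated group. Nothing in the labels says that the libraries of a group came from separate cultures, and the p-values therefore measure only the spread between these libraries.

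RBPMS and RBPMS2 are RNA-binding proteins with an RNA recognition motif that prefers RNA with CAC trinucleotides, often in tandem. They are best known from smooth muscle, where RBPMS controls the alternative splicing of many contractile and cytoskeletal genes. ANKRD10 encodes a protein with ankyrin repeats, a fold that binds other proteins, and the study asked how RBPMS acts on the splicing of its pre-mRNA.

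The positions below are those of GENCODE v29 on GRCh38. RBPMS (ENSG00000157110) lies on chr8:30384479-30572261 on the plus strand, with 20 annotated transcripts and 8931 bases of exon. RBPMS2 (ENSG00000166831) lies on chr15:64739892-64775587 on the minus strand, with 2 transcripts and 2101 bases of exon. ANKRD10 (ENSG00000088448) lies on chr13:110878540-110915069 on the minus strand, with 11 transcripts and 4563 bases of exon. ANKRD10-IT1 (ENSG00000229152), annotated as sense intronic, lies within it at chr13:110894639-110899172 on the same strand, with 1 transcript of 800 bases. The exons of ANKRD10 and ANKRD10-IT1 share 0 bases. Unspliced ANKRD10 RNA nevertheless runs across the exons of ANKRD10-IT1 on the same strand, and reads from these sources cannot be told apart in counts per gene.

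**Figure D1:**
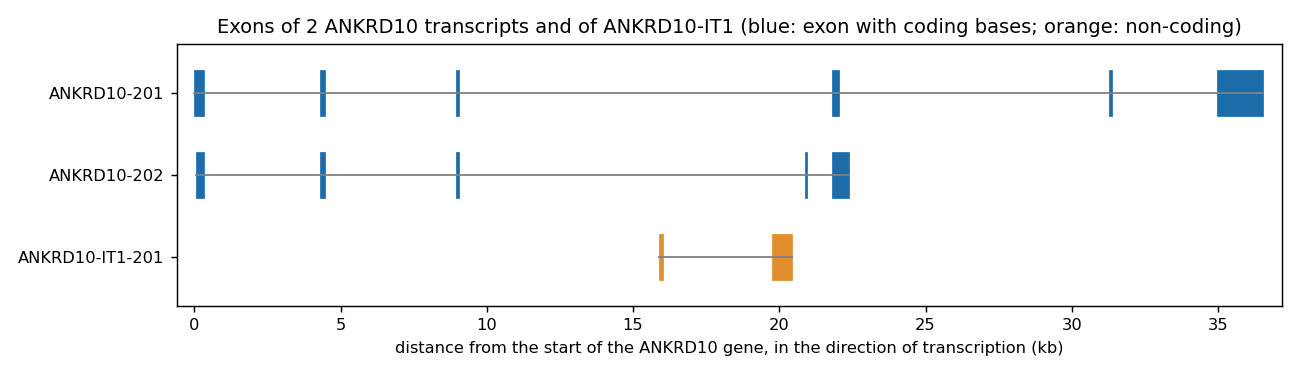
Exons (boxes) of the annotated transcripts ANKRD10-201, ANKRD10-202 and ANKRD10-IT1-201 by distance in kb from the start of the ANKRD10 gene, with introns as lines. ANKRD10-202 has an added exon of 94 bases and ends early, and ANKRD10-IT1 lies in the intron between exon 3 and that added exon.

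The study distinguishes a longer ANKRD10-1 and a shorter ANKRD10-2, and the annotation holds transcripts of either kind. ANKRD10-201 has 6 exons, 2495 bases and 420 codons, and ANKRD10-202 has 5 exons, 1193 bases and 220 codons. The labels do not tie ANKRD10-1 or ANKRD10-2 to an annotated transcript, but the supplement of the study gives sequences and product lengths. Both siRNA sequences listed there for ANKRD10-1 lie within exon 5 of ANKRD10-201, which ANKRD10-202 lacks. The PCR products listed for ANKRD10 differ by the length of exon 4 of ANKRD10-202, which ANKRD10-201 lacks. ANKRD10-1 is thus of the kind of ANKRD10-201 and ANKRD10-2 of the kind of ANKRD10-202. Other annotated transcripts were not compared, and the counts per gene sum all ANKRD10 transcripts. ANKRD10-201 and ANKRD10-202 differ in several exons. Their last exons, of 1573 and 572 bases, are neither shown nor counted for CAC here. An internal exon of each that the other lacks, and the first exon of ANKRD10-IT1, are shown as GENCODE v29 gives them. The sequences run 5′ to 3′ on the transcribed strand, with each CAC in capitals. They stand here because CAC is the trinucleotide that RBPMS and RBPMS2 prefer.
ANKRD10-202 exon 4, chr13:110894109-110894202, all coding: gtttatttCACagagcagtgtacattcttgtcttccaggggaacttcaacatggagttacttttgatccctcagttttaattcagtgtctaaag
ANKRD10-201 exon 5, chr13:110883698-110883793, all coding: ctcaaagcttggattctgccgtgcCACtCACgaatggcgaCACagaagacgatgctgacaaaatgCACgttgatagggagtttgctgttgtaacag
ANKRD10-IT1-201 exon 1, chr13:110899056-110899172, not coding: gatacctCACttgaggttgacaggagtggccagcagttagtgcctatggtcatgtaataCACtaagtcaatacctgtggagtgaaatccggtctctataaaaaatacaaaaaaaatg

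The 94-base exon of ANKRD10-202 held 1 CAC and no tandem pair. A tandem pair is a CAC and the next, not overlapping it, with at most 12 bases between them. Of 14351 internal exons of coding transcripts within 5 bases of its length, 71.5% held at least 1 CAC and 16.8% a tandem pair. Exons on chromosome 8 were left out of this set and of the sets below. Exon 5 of ANKRD10-201 held 4 CAC with a tandem pair. Of 14135 such exons, 6.4% held at least as many CAC and 17.0% a tandem pair. The first exon of ANKRD10-IT1 held 2 CAC and no tandem pair. Of 13950 internal exons of coding transcripts within 5 bases of its length, 51.3% held at least as many CAC and 23.5% a tandem pair. These are matches of letters on the transcribed strand and not sites of binding. The study reports binding of RBPMS to ANKRD10 RNA by immunoprecipitation, at positions that were not placed on these exons here.

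The cells carried the markers of an epithelial line. All 9 epithelial markers examined were detected in every library, the lowest being GATA3 at 6.41 CPM, the count scaled to a library total of 1000000. The summed CPM of 3 leukocyte markers did not pass 0.413, and of 4 smooth muscle markers DES did not pass 0.202 CPM and CNN1 0.619 CPM. The other smooth muscle markers were higher, ACTA2 at 2.11 to 9.09 CPM over all libraries and MYH11 at 0 to 0.298 CPM in the knockout table, 3.43 to 5.56 in the overexpression table and 3.16 to 8.14 in the knockdown table. COL1A1, which marks fibroblasts but was present throughout, ran from 25.8 to 53.6 CPM. The epithelial sum differed within the knockdown table, at 5490 to 5570 CPM in siNC, 4560 to 4770 in siANKRD10-1 and 3430 to 3550 in siANKRD10-2. It was 3810 to 3960 CPM in KO2 against 4020 to 4270 in WT2, and 2970 to 3140 in Vector against 3180 to 3330 in ANKRD10-1 and 3220 to 3610 in ANKRD10-2. The smooth muscle sum differed within the knockdown table too, at 10.5 to 12.1 CPM in siNC, 8.76 to 9.80 in siANKRD10-1 and 7.23 to 7.93 in siANKRD10-2. It was also lower in KO2 (2.87 to 4.49 CPM) than in WT2 (4.99 to 6.48) and in ANKRD10-2 (9.55 to 12.8) than in Vector (12.9 to 14.1). The sum of 4 fibroblast markers was 32.1 to 37.8 CPM in KO1 against 52.8 to 57.7 in WT1, and 49.3 to 51.2 in KO2 against 55.9 to 57.3 in WT2. It was 44.9 to 47.0 CPM in Vector against 47.5 to 51.3 in ANKRD10-1, and 27.5 to 30.2 in siNC against 31.7 to 33.0 in siANKRD10-1 and 33.0 to 35.1 in siANKRD10-2. The part of these sums in the results was not tested.

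RBPMS, the target of the knockout, was lower in both knockouts but remained detected. Its level was 40.0, 42.8 and 40.3 CPM in WT1 against 15.01, 14.98 and 13.96 CPM in KO1. In WT2 it was 44.9, 43.7 and 43.0 CPM, against 20.5, 18.7 and 20.7 CPM in KO2. No knockout library reached any control library, and KO1 lay below KO2. By the quasi-likelihood test of edgeR, adjusted over the whole table by the Benjamini-Hochberg method, which gives every adjusted p below, RBPMS fell by 1.44 on the log2 scale in KO1, that is 2.72-fold (SE 0.07, 95% interval -1.60 to -1.29, adjusted p = 1.25e-07, n = 3 against 3). In KO2 it fell by 1.09, or 2.13-fold (SE 0.06, interval -1.22 to -0.96, adjusted p = 5.07e-08). The fall was deeper in KO1 by 0.36 (SE 0.09, adjusted p = 0.00672). The controls were 0.10 apart on the log2 scale (interval -0.02 to 0.21, adjusted p = 0.474), although the WT2 libraries were all above those of WT1. Counts per gene sum every RBPMS transcript and do not show whether an edited reading frame was intact, and in bulk libraries fewer cells with a transcript and less of it per cell cannot be told apart.

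Other genes annotated at RBPMS had few counts. RBPMS-AS1, on the opposite strand, shares 230 bases or 2.58% of the RBPMS exons, and its counts ran from 18 to 67 per library in the knockout table. AC102945.2, on the same strand with 0 shared bases, had 95 to 237 counts. RBPMS itself had 668 to 2998 counts in these libraries.

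RBPMS2 did not pass the test in either knockout. Its level was 11.1, 12.1 and 8.87 CPM in WT1 and 9.004, 8.365 and 10.59 CPM in KO1. In WT2 it was 9.47, 10.1 and 8.49 CPM, and in KO2 9.73, 8.51 and 8.06 CPM. The groups overlapped in both comparisons. The fitted change was -0.15 in KO1 (interval -0.46 to 0.16, adjusted p = 0.447) and -0.05 in KO2 (interval -0.30 to 0.20, adjusted p = 0.783), which does not show that the level stayed the same. Against RBPMS within the same library, RBPMS2 stood at 22.0 to 28.2 counts per 100 RBPMS counts in WT1 and 55.8 to 75.9 in KO1, and at 19.7 to 23.0 in WT2 and 38.9 to 47.5 in KO2.

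ANKRD10 was lower in both knockouts as well. It measured 195, 198 and 200 CPM in WT1 and 86.3, 88.7 and 79.8 CPM in KO1. It measured 200, 191 and 190 CPM in WT2 and 113, 107 and 113 CPM in KO2. The knockout libraries were apart from all control libraries, while the control groups overlapped each other. ANKRD10 fell by 1.18 on the log2 scale in KO1, or 2.26-fold (SE 0.05, interval -1.29 to -1.06, adjusted p = 6.55e-08). In KO2 it fell by 0.76, or 1.70-fold (SE 0.04, interval -0.85 to -0.67, adjusted p = 3.98e-08). The fall was again deeper in KO1, by 0.42 (SE 0.06, adjusted p = 0.00016). These are sums over the transcripts of ANKRD10, and their shares were not measured.

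ANKRD10-IT1 fell with its host gene. It measured 25.5, 24.43 and 27.97 CPM in WT1 and 16.5, 16.7 and 11.6 CPM in KO1. In WT2 it measured 24.5, 21.7 and 20.9 CPM, and in KO2 16.3, 13.6 and 14.2 CPM. Neither knockout overlapped its control, and the knockouts overlapped each other. The log2 change was -0.76 in KO1 (SE 0.13, adjusted p = 0.000809) and -0.56 in KO2 (SE 0.09, adjusted p = 0.000377), and the difference between the knockouts was -0.20 (interval -0.56 to 0.16, adjusted p = 0.454). Per 100 ANKRD10 counts of the same library there were 12.4 to 14.0 ANKRD10-IT1 counts in WT1, 14.5 to 19.1 in KO1, 11 to 12.2 in WT2 and 12.6 to 14.4 in KO2. With 3 libraries a group, an exact permutation test on these ratios could not pass the threshold, and none was run.

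So 3 of the 4 genes were called in each knockout, all of them lower. They are not independent members, since RBPMS was the target, and reads of ANKRD10-IT1 and of unspliced ANKRD10 RNA cannot be told apart. Over all genes, 36.1% of 17865 genes tested were called in KO1 and 38.5% of 18267 in KO2, with near-equal numbers in either direction (3204 higher and 3250 lower in KO1). By the size of the change, RBPMS was at place 953 and ANKRD10 at place 1367 among the genes tested in KO1, so many genes moved further. For the difference between the knockouts, 2 of the 4 were called against 23.3% of 19189 genes. None of the 4 was called between WT2 and WT1 by edgeR or DESeq2, where edgeR called 1.23% of 18335 genes, and ANKRD10-IT1 alone had an unadjusted p under 0.05 (0.0198).

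**Figure D2:**
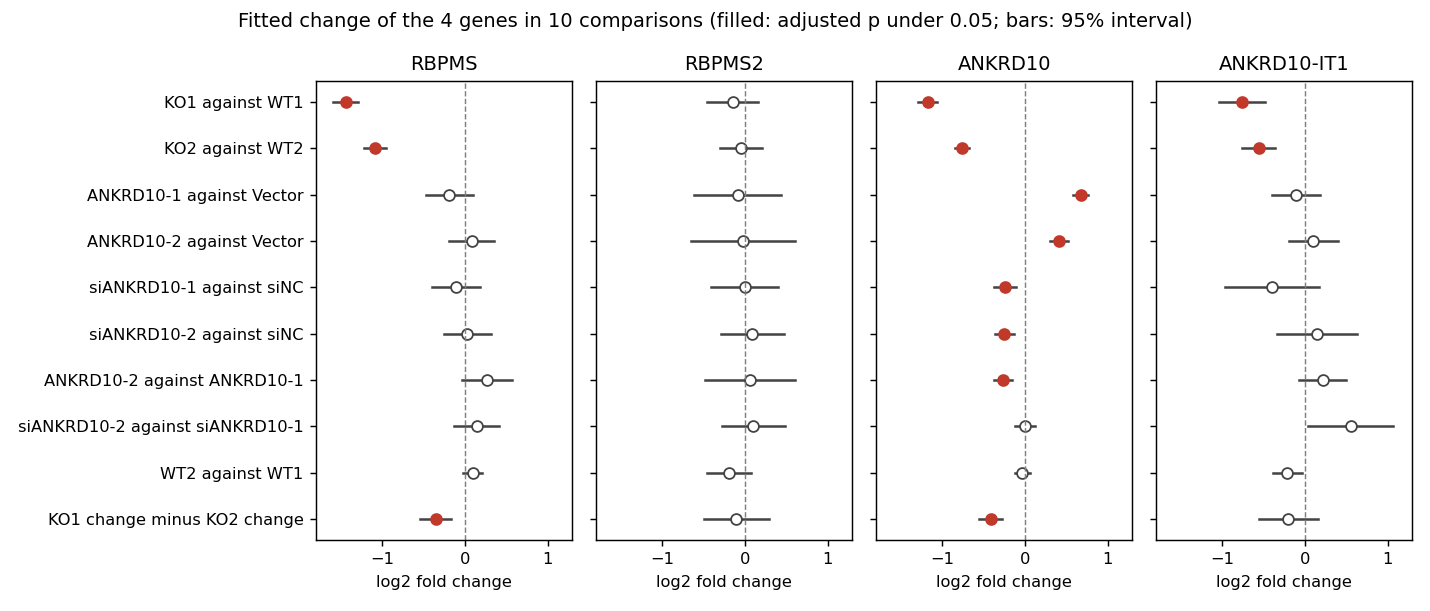
Fitted log2 fold change (points) with 95% interval (bars) of the 4 genes in the 10 comparisons, filled where the adjusted p was under 0.05. RBPMS and ANKRD10-IT1 were called against their control in KO1 and KO2, ANKRD10 in all 6 comparisons with a control, and RBPMS2 was not called in any.

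In the overexpression table, ANKRD10 was higher in both treated groups and the other 3 genes were not called. ANKRD10 measured 154, 153 and 153 CPM in Vector. It measured 233, 233 and 245 CPM in ANKRD10-1 and 199, 179 and 198 CPM in ANKRD10-2. The 3 groups did not overlap, and ANKRD10-1 was the highest. The rise was 0.67 on the log2 scale in ANKRD10-1, or 1.59-fold (SE 0.04, adjusted p = 4.44e-09), and 0.41 in ANKRD10-2, or 1.33-fold (SE 0.05, adjusted p = 8.29e-05). Compared directly, ANKRD10-2 lay below ANKRD10-1 by 0.27 (SE 0.05, adjusted p = 0.00355). This is a difference in reads, not scaled for the length of the transcripts. The coding parts of ANKRD10-201 and ANKRD10-202 hold 1260 and 660 bases, so numbers of transcripts were not compared. The counts do not separate RNA of the plasmid from RNA of the cell's own gene.

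ANKRD10-IT1 was not called against Vector in either treated group there, which does not show that its level stayed the same. It measured 5.11, 3.85 and 4.84 CPM in Vector, 4.61, 3.70 and 4.12 CPM in ANKRD10-1 and 4.79, 5.10 and 4.23 CPM in ANKRD10-2. All 3 groups overlapped, and the changes were -0.11 (interval -0.40 to 0.18, adjusted p = 0.709) and 0.10 (interval -0.19 to 0.40, adjusted p = 0.662). Per 100 ANKRD10 counts there were 2.53 to 3.32 ANKRD10-IT1 counts in Vector, 1.59 to 1.98 in ANKRD10-1 and 2.14 to 2.85 in ANKRD10-2, so the ratios of ANKRD10-1 lay below all of Vector and those of ANKRD10-2 overlapped them.

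RBPMS in the same libraries measured 5.40, 5.58 and 4.86 CPM in Vector, 4.80, 3.57 and 5.11 CPM in ANKRD10-1 and 4.64, 5.01 and 6.14 CPM in ANKRD10-2. The groups overlapped, with changes of -0.19 (interval -0.47 to 0.10, adjusted p = 0.472) and 0.08 (interval -0.20 to 0.36, adjusted p = 0.717). RBPMS2 rested on 28 to 66 counts per library, and its mean in Vector was 1.23 ± 0.386 CPM (SD, n = 3), a spread of 31.4% of the mean where counting alone gives 13.9%. Its intervals were accordingly wide, at -0.61 to 0.44 in ANKRD10-1 and -0.66 to 0.61 in ANKRD10-2. Thus 1 of the 4 genes, the overexpressed ANKRD10, was called in each comparison. Over all genes the called share was 6.31% of 20457 for ANKRD10-1, 19.9% of 20177 for ANKRD10-2, and 7.26% of 20052 between the treated groups.

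**Figure D3:**
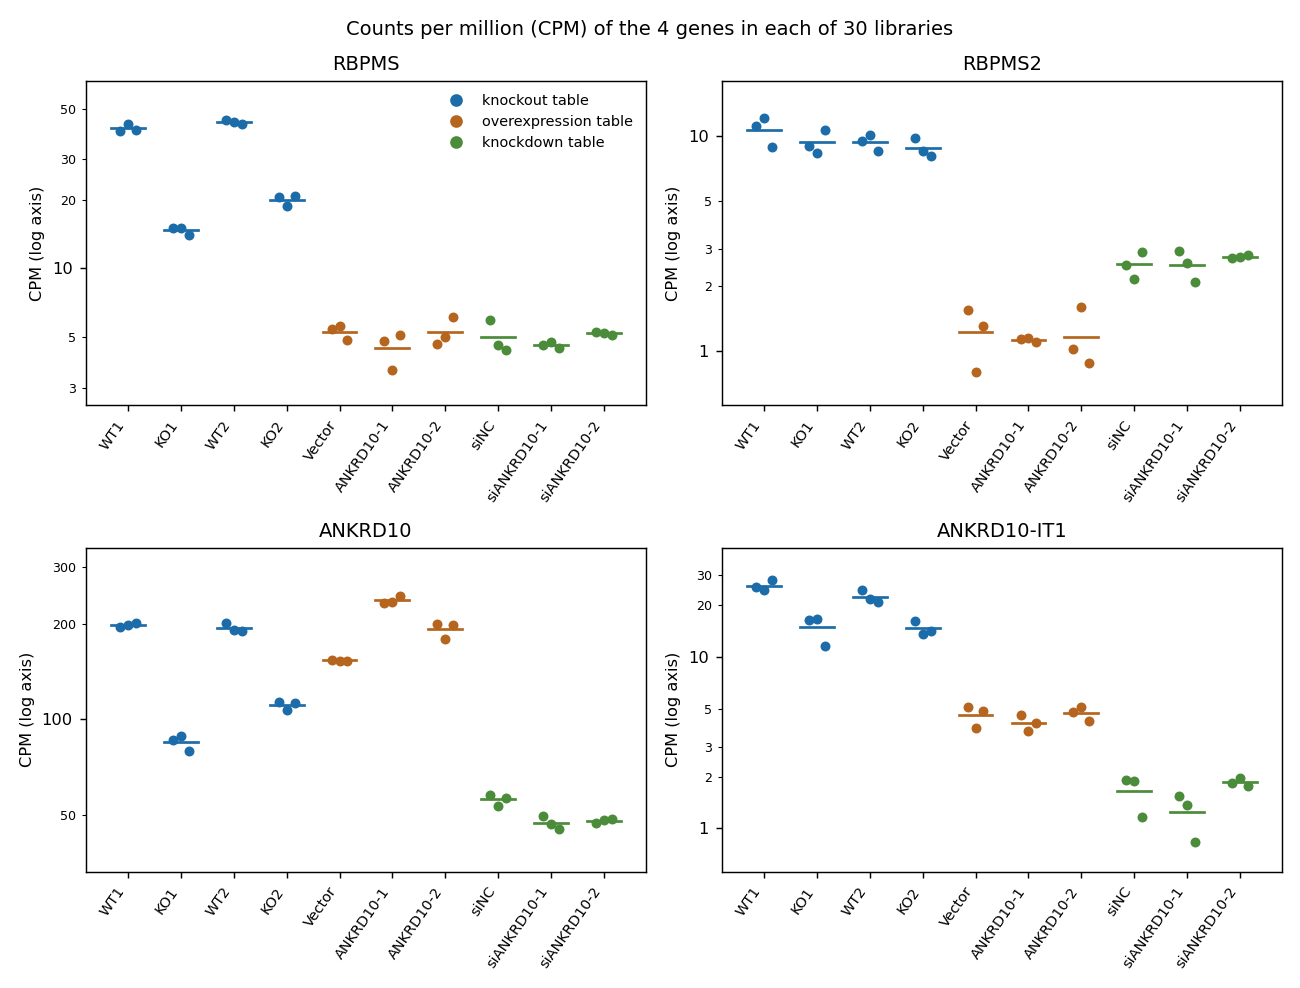
CPM of RBPMS, RBPMS2, ANKRD10 and ANKRD10-IT1 on log axes, with a point for each library and a line at the mean of each group, coloured by count table. RBPMS lies between 40.0 and 44.9 CPM in the WT libraries, between 14.0 and 20.7 in the knockouts and at 6.14 or below in every library of the other tables.

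In the knockdown table, ANKRD10 was lower in both treated groups. It measured 57.8, 53.7 and 56.8 CPM in siNC, 49.7, 47.0 and 45.2 CPM in siANKRD10-1 and 47.3, 48.3 and 48.7 CPM in siANKRD10-2. Neither treated group overlapped siNC, and they overlapped each other. ANKRD10 fell by 0.24 on the log2 scale with siANKRD10-1, or 1.18-fold (SE 0.06, interval -0.37 to -0.11, adjusted p = 0.0159). It fell by 0.25 with siANKRD10-2, or 1.19-fold (SE 0.06, interval -0.37 to -0.13, adjusted p = 0.00122). The call for siANKRD10-1 rested on single libraries, the adjusted p being 0.0607 without siNC replicate 1 and 0.0636 without siANKRD10-1 replicate 3. The 95% interval of the difference between the siRNA groups was -0.13 to 0.12 (adjusted p = 0.985). The counts sum all ANKRD10 transcripts, and the change of any single transcript was not measured.

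The other 3 genes were not called against siNC. RBPMS measured 5.95, 4.61 and 4.39 CPM in siNC, 4.62, 4.76 and 4.46 in siANKRD10-1 and 5.25, 5.19 and 5.10 in siANKRD10-2, with changes of -0.11 (interval -0.40 to 0.18, adjusted p = 0.681) and 0.03 (interval -0.25 to 0.31, adjusted p = 0.894). All siANKRD10-2 libraries lay above those of siANKRD10-1, yet the difference of 0.14 did not pass the test (adjusted p = 0.421). RBPMS2 ran from 2.09 to 2.92 CPM over the 3 groups.

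ANKRD10-IT1 rested on 27 to 62 counts per library in this table. It measured 1.91, 1.89 and 1.16 CPM in siNC, 1.54, 1.38 and 0.831 in siANKRD10-1 and 1.84, 1.96 and 1.77 in siANKRD10-2. The change was -0.40 with siANKRD10-1 (interval -0.97 to 0.17, adjusted p = 0.388) and 0.14 with siANKRD10-2 (interval -0.33 to 0.62, adjusted p = 0.674). Between the treated groups the libraries did not overlap, with a difference of 0.55 (SE 0.25, unadjusted p = 0.0379, adjusted p = 0.0893). A change in ANKRD10-IT1 of the size of that in ANKRD10 was therefore not detectable at this depth. Of the 4 genes 1, the targeted ANKRD10, was called in each comparison with siNC. Over all genes the called share was 10.6% of 18785 for siANKRD10-1 and 36.3% of 18924 for siANKRD10-2. Between the treated groups none of the 4 was called by edgeR or DESeq2, against 37% of 18832 genes.

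The levels were ranked over all 10 groups. The 3 count tables occupied separate stretches of the order for RBPMS2 and ANKRD10-IT1, and mixed for RBPMS and ANKRD10. For RBPMS the order was WT2 (43.8 ± 0.948 CPM, SD, n = 3), WT1 (41.0 ± 1.55), KO2 (20.0 ± 1.10) and KO1 (14.7 ± 0.597), each apart from the next, followed by the 6 groups of the other tables between 5.28 ± 0.374 in Vector and 4.49 ± 0.815 in ANKRD10-1, which overlapped their neighbours in the order and mixed the overexpression and knockdown tables. For RBPMS2 the 4 groups of the knockout table came first at 8.77 to 10.7 CPM, then the knockdown table at 2.52 to 2.75 and the overexpression table at 1.13 to 1.23. For ANKRD10-IT1 the knockout table came first at 14.7 to 26.0 CPM, then the overexpression table at 4.14 to 4.71 and the knockdown table at 1.25 to 1.86.

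For ANKRD10 the knockout and overexpression tables were interleaved. ANKRD10-1 was highest at 237 ± 6.77 CPM, followed by WT1 (198 ± 2.67), WT2 (194 ± 5.74) and ANKRD10-2 (192 ± 11.4), of which WT1 overlapped WT2 and WT2 overlapped ANKRD10-2. Vector followed at 153 ± 0.645, then KO2 (111 ± 3.54) and KO1 (84.9 ± 4.57). The knockdown table was lowest, with siNC at 56.1 ± 2.13, so that its control level lay below both RBPMS knockouts.

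The control groups of the 3 tables were set side by side without a test, since each control group belongs to a table of its own, and control treatment and any other difference between the tables cannot be told apart. Relative to the mean of the WT libraries (42.4 CPM), RBPMS was 7.91-fold lower in Vector and 8.37-fold lower in siNC, both after adding 0.1 CPM. Among 14460 genes shared by the tables and at 1 CPM or more in a control group, 2.99% differed further downward in Vector and 1.51% in siNC. The median gene differed by -0.44 in Vector and -0.60 in siNC on the log2 scale. ANKRD10-IT1 was 5.16-fold lower in Vector and 13.8-fold lower in siNC than in WT, the latter with 0.581% of genes lower still. ANKRD10 was 1.28-fold lower in Vector, where 15.7% of genes were closer to WT, and 3.48-fold lower in siNC. Between siNC and Vector, RBPMS differed by only -0.08, whereas ANKRD10 was 2.73-fold and ANKRD10-IT1 2.68-fold lower in siNC.

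**Figure D4:**
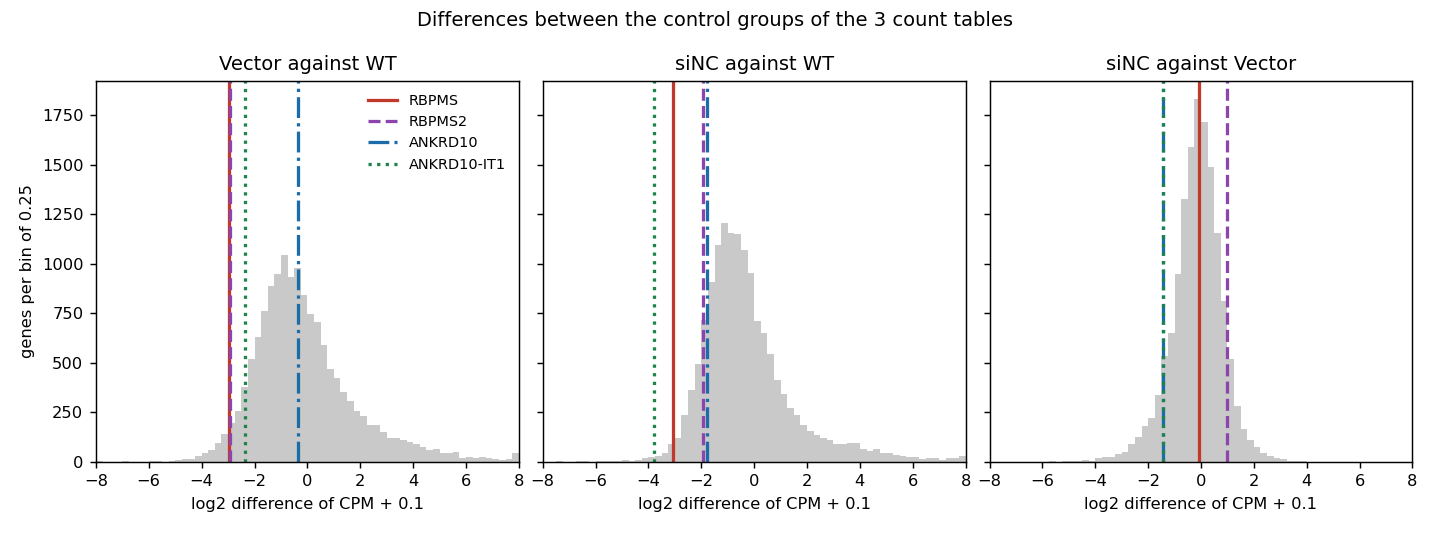
Number of genes (grey bars, 14460 in all) by the log2 difference of CPM + 0.1 between the control groups of the 3 count tables, with the 4 genes as coloured lines and differences beyond the axis counted in the outermost bars. RBPMS stands at -2.98 in Vector against WT and -3.06 in siNC against WT, and at -0.08 in siNC against Vector.

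Levels of different genes were compared per kb of exon, with the exon lengths of the overexpression table. In WT1 the order was ANKRD10 (43.3 ± 0.585 CPM per kb), ANKRD10-IT1 (32.5 ± 2.27), RBPMS2 (5.09 ± 0.782) and RBPMS (4.60 ± 0.173). In Vector ANKRD10 stood at 33.6, ANKRD10-IT1 at 5.75, RBPMS at 0.591 and RBPMS2 at 0.584. The order of RBPMS and RBPMS2 depended on the length used. With the longest transcript, of 3110 bases for RBPMS and 2008 for RBPMS2, RBPMS was the higher in WT1, at 13.2 against 5.32 CPM per kb.

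Most genes beside RBPMS and ANKRD10 changed less than these genes in the knockouts. Around RBPMS, 10 of 12 protein-coding genes within 500 kb were tested in each knockout, and 5 rose and 1 fell in KO1, while 4 rose and 2 fell in KO2. GTF2E2, which encodes a subunit of the general transcription factor TFIIE and lies 6.1 kb away, rose by 0.27 (adjusted p = 0.0253) in KO1 and 0.24 (adjusted p = 0.0208) in KO2. DCTN6, a dynactin subunit gene 200.8 kb away on the other side, was not called (0.10 and 0.03). PURG, singled out after its values were seen, changed by -0.57 in KO1 (adjusted p = 0.11) and -1.82 in KO2 (adjusted p = 0.000641) on a mean of 70 normalized counts.

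Around ANKRD10, 6 of 7 neighbours were tested. Of these 2 fell in KO1, and 1 rose and 3 fell in KO2, by at most 0.32. ING1, a chromatin reader gene 155.2 kb away, fell by 0.31 in KO1 (adjusted p = 0.00412) and measured -0.08 in KO2 (adjusted p = 0.342). Around RBPMS2, 15 of 20 neighbours were tested and 4 were called in each knockout, 26.7% against 36.1% and 38.5% of all genes. Its nearest tested neighbours OAZ2 and PIF1 were not called in either. The called shares around RBPMS (60% in each knockout) and ANKRD10 (33.3% in KO1 and 66.7% in KO2) rest on 10 and 6 genes. Of the neighbours of the 3 genes together, 2 of 30 tested were called with ANKRD10-1, 5 of 30 with ANKRD10-2, 2 of 29 with siANKRD10-1 and 16 of 29 with siANKRD10-2, where 6.31%, 19.9%, 10.6% and 36.3% of all genes were called.

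Genes with an ANKRD symbol other than ANKRD10 are named for the ankyrin repeat and were taken by symbol alone. They include pseudogenes such as ANKRD18EP and ANKRD36BP1, and closely related genes such as ANKRD36B and ANKRD36C. Of 75 such genes, 46 were tested in KO1, where 2 rose and 14 fell (34.8% called, against 36.1% of all genes), with a median change of -0.22 against -0.00199 over all genes. In KO2, 3 rose and 15 fell of 45 tested (40% called, against 38.5%), with a median of -0.13 against -0.0161. The genes with the largest called moves and at least 50 normalized counts had opposite signs in the knockouts for ANKRD1 and ANKRD33B. ANKRD1, a transcriptional cofactor known from heart muscle, fell by 2.92 in KO1 (adjusted p = 1.97e-05) and rose by 0.63 in KO2 (adjusted p = 0.00512), and ANKRD33B rose by 0.90 in KO1 (adjusted p = 7.61e-05) and fell by 0.685 in KO2 (adjusted p = 0.000257). The largest fall in KO2 was that of ANKRD20A1, by 1.14 (adjusted p = 0.00774), a gene with near-identical copies whose counts are therefore uncertain.

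With ANKRD10-1, of 47 tested ANKRD genes 1 was called (2.13%, against 6.31% of all genes), ANKRD13A, which fell by 0.26 (adjusted p = 0.0159). With ANKRD10-2, 7 rose and 3 fell of 48 (20.8% against 19.9%), with ANKRD1 rising most, by 1.09 (SE 0.07, adjusted p = 1.16e-07), and ANKRD34B falling most, by 0.51 (adjusted p = 0.00881). With siANKRD10-1, 2 rose and 7 fell of 47 (19.1% against 10.6%), and ANKRD52 rose most, by 0.31 (adjusted p = 0.00537). With siANKRD10-2, 10 rose and 6 fell of 47 (34% against 36.3%), among them ANKRD11, a chromatin regulator, which rose by 0.63 (adjusted p = 1.17e-08). ANKRD33B fell with both siRNAs, by 0.87 (adjusted p = 0.0093) and 1.48 (adjusted p = 7.3e-06).

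The genes linked to RBPMS in smooth muscle were mostly the cytoskeletal genes that epithelial cells also express. Of 15 genes, 11 were tested in each knockout. In KO1 5 rose and 2 fell, with a median of 0.17, and in KO2 7 rose and 2 fell, with a median of 0.43. These are 63.6% and 81.8% of the genes tested, beside 36.1% and 38.5% of all genes, with medians of -0.00199 and -0.0161 over all genes. MYLK, the myosin light chain kinase, rose by 0.84 in KO1 (adjusted p = 0.00189) and 0.43 in KO2 (adjusted p = 0.0157), and SYNPO2, which encodes an actin-binding protein, fell by 1.73 in KO1 (adjusted p = 0.00427) and 2.25 in KO2 (adjusted p = 0.000323) on means of 75.3 and 88.1 normalized counts. TPM1, a tropomyosin, fell by 0.57 in KO1 (adjusted p = 4.41e-06) and rose by 0.36 in KO2 (adjusted p = 9.66e-06). MYH11, which defines mature smooth muscle, did not pass 0.298 CPM in any library of the knockout table. In the other tables it was higher, at 3.16 to 8.14 CPM, and it fell by 1.09 with siANKRD10-2 (adjusted p = 3.45e-07). With ANKRD10-1, 1 of 12 genes of the list was called (8.33%, against 6.31% of all genes), and with ANKRD10-2 5 of 12 (41.7% against 19.9%). With siANKRD10-1, 3 of 12 were called (25% against 10.6%), and with siANKRD10-2 7 of 13 (53.8% against 36.3%).

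Of 9 genes that the study links to RBPMS or ANKRD10, all were tested, and their choice by the study on these samples makes them no independent evidence. In KO1 3 rose and 2 fell (55.6% called, against 36.1% of all genes), and in KO2 5 rose and 1 fell (66.7% against 38.5%). MYC, a transcription factor of growth genes, rose by 0.42 in KO1 (adjusted p = 7.32e-05) and 0.17 in KO2 (adjusted p = 0.032), rose by 0.55 with ANKRD10-2 (adjusted p = 2.16e-05) and fell by 0.60 with siANKRD10-2 (adjusted p = 3.72e-08). It measured 0.16 with ANKRD10-1 (adjusted p = 0.0914) and 0.08 with siANKRD10-1 (adjusted p = 0.469). FN1, which encodes fibronectin, fell by 0.53 in KO1 (adjusted p = 7.84e-06) and rose by 1.58 in KO2 (adjusted p = 4.06e-11).

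Over the 6 comparisons with a control, the genes nearest to each member in change were found by Euclidean distance between log2 fold changes, among 11502 genes with at least 50 normalized counts on average in every comparison. The treated groups of the overexpression and knockdown tables share their controls, so these are not 6 independent measurements. CDH23 was nearest to RBPMS (distance 0.229), with -1.56 in KO1 and -0.95 in KO2, followed by INTS6L (0.338), ZNF112 (0.423), SATB1 (0.442) and IRX3 (0.445). BMP4 was nearest to ANKRD10 (0.551), with -1.57 and -0.66 in the knockouts and 0.44 and 0.57 in the overexpression groups, followed by SEMA5A, ZSCAN31, ARHGAP33 and ADIRF at 0.665 to 0.729. The nearest genes of ANKRD10 were thus farther away than those of RBPMS.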

How the data were processed

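Counts per gene were deposited by the authors as 3 tables of whole numbers without normalization, in 1 column per library. The submitters' processing notes name Trimmomatic 0.36, featureCounts, Subread 1.5.1 and GRCh38, and the study's methods name Cutadapt, HISAT2 and StringTie. The annotation release and the strand setting are not given in the sources used here. Gene models came from GENCODE v29, in which 93.1% of 36027 matched symbols of the overexpression table had the same chromosome, start and end. The 4 genes and all gene lists were chosen with earlier results of these data known. CPM were computed from the total counts.

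Each comparison was fitted in R 4.3.3 on the libraries compared (the difference between the knockouts on all 12 of the table) with edgeR 4.0.16: filterByExpr with a minimum count of 10 and a minimum total of 15, TMM, the quasi-likelihood test, a prior count of 0.125 and Benjamini-Hochberg adjustment over all genes tested, called under 0.05. All 4 genes passed the filter in all 10 comparisons. The procedure was tested on simulated data.

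Named were the 4 genes, genes overlapping them, the nearest tested neighbour on each side, the largest called rise and fall with at least 50 normalized counts among ANKRD genes, genes of the fixed smooth muscle and study-linked lists, and the 5 nearest genes by change. Some of the genes this rule names are not reported here. Libraries of a group differed beyond counting noise in every pair (chi-square per degree of freedom 4.19 to 19.9). Alternatives were DESeq2 1.42.0, RLE size factors, no filter, all libraries of a table in 1 fit, a replicate block, leaving out each library, TMM-scaled levels, another transcript length and other minimum counts. No columns were left unused apart from gene positions. Splicing was not analysed here.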

Additional observations from a re-analysis of the deposited data

Results flagged for a closer look

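The change of RBPMS differed between the knockouts by -0.356 on the log2 scale (KO1 against WT1 minus KO2 against WT2, edgeR adjusted p = 0.00672), and that of ANKRD10 by -0.417 (adjusted p = 0.00016). In both cases all 3 libraries of each knockout lay below all 3 of its control. The change of ANKRD10 also differed between the overexpression groups, ANKRD10-2 lying -0.267 from ANKRD10-1 (adjusted p = 0.00355), with all 6 libraries above Vector. These were picked out by a test of the difference itself, over 12 libraries for the knockouts and 6 for the overexpression groups. That between the overexpression groups is a difference in reads, and transcripts of the ANKRD10-1 and ANKRD10-2 kinds differ in length.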

How the results depend on the processing

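Of the changes of the 4 genes in the 10 comparisons, none turned direction or crossed the threshold under DESeq2, RLE size factors, no filter on low counts, or, for the 9 comparisons where it applies, all libraries of the table in 1 fit. The number of genes called between WT2 and WT1 was 226 by edgeR, 690 by DESeq2 and 88 without the filter, and the cause was not tested. The replicate numbers did not pair the libraries, since the correlation of the deviations of same-numbered libraries was between -0.035 and 0.082. With the replicate block, no call of the 4 genes changed, and 6082 genes were called in KO1 against 6454 without it.

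Leaving out each library in turn, the change of ANKRD10 with siANKRD10-1 ran from -0.283 to -0.218 and lost its call without siNC replicate 1 or siANKRD10-1 replicate 3. The called changes otherwise kept direction and call. Of changes that were not called, the sign turned for RBPMS2 in KO2 (-0.122 to 0.00533), ANKRD10-1 (-0.297 to 0.113), ANKRD10-2 (-0.298 to 0.177), siANKRD10-1 (-0.126 to 0.121) and siANKRD10-2 (-0.0157 to 0.216), between the overexpression groups (-0.219 to 0.232) and between the siRNA groups (-0.0171 to 0.214). It turned for RBPMS with ANKRD10-2 (-0.0443 to 0.17), siANKRD10-1 (-0.177 to 0.0215) and siANKRD10-2 (-0.0401 to 0.162), for ANKRD10-IT1 with ANKRD10-2 (-0.00577 to 0.182) and siANKRD10-2 (-0.0444 to 0.249), and for ANKRD10 between the siRNA groups (-0.0313 to 0.0303).

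The number of genes called with a library left out was 700 to 1549 for ANKRD10-1 against Vector (700 and 768 without ANKRD10-1 replicates 1 and 2, 831 and 792 without Vector replicates 1 and 2) and 2617 to 3533 for ANKRD10-2 against Vector (2617 without either of the same Vector replicates). It was 949 to 2430 for siANKRD10-1 against siNC (1073 and 949 without siNC replicates 1 and 2, 1039 and 1303 without siANKRD10-1 replicates 1 and 3), 694 to 1396 between the overexpression groups (694, 759 and 854 without ANKRD10-1 replicates 1, 2 and 3, 953 without ANKRD10-2 replicate 3) and 71 to 133 between WT2 and WT1. Fewer libraries entered each of these fits.

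Of the gene lists, 14 neighbours were called in KO2 and 9 without the filter, 2 with ANKRD10-1 and 1 with all libraries in 1 fit, and 2 with siANKRD10-1 and 4 without the filter or with the replicate block. With ANKRD10-1, 1 ANKRD gene was called, 4 by DESeq2 and 2 without the filter, with all libraries in 1 fit or with the replicate block. Leaving out a library moved 37 list counts by over 1.5 times and 71 by less. Neighbours called went from 12 to 6 in KO1 (without WT1 replicate 1 or 2), 14 to 9 in KO2 (WT2 replicate 1 or 3), 2 to 0 or 1 with ANKRD10-1 (any library but Vector replicate 3), 5 to 3 with ANKRD10-2 (Vector replicate 1 or 2, ANKRD10-2 replicate 3) and 2 to 0 or 1 with siANKRD10-1 (any library). ANKRD genes went from 16 to 10 in KO1 (WT1 replicate 3), 1 to 0 with ANKRD10-1 (its replicates 1 and 2, Vector replicate 1) or 4 (Vector replicate 3), 10 to 5 with ANKRD10-2 (Vector replicate 2) and 9 to 4 or 5 with siANKRD10-1 (siNC replicates 1 and 2, siANKRD10-1 replicates 1 and 3). Smooth muscle genes went from 1 to 0 with ANKRD10-1 (its replicate 3, Vector replicates 1 and 2), 5 to 1 or 2 with ANKRD10-2 (its replicate 3, Vector replicates 1 and 2), 3 to 1 with siANKRD10-1 (siNC replicate 1, siANKRD10-1 replicate 1) and 7 to 4 with siANKRD10-2 (its replicate 2). With TMM-scaled library sizes the level of ANKRD10 moved by more than its SD in WT1 (198 to 195 CPM) and Vector (153 to 149 CPM). With a prior count of 2 all 5 nearest genes of RBPMS and ANKRD10 were retained. With a minimum of 200 normalized counts, 2 of 5 were retained for ANKRD10, and RBPMS was below it. RBPMS2 and ANKRD10-IT1 in the overexpression and knockdown tables rested on 27 to 228 counts per library, which limits what could be detected.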
